A study of Mus musculus with 12 samples.

Results

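The miR-144/miR-451a cluster is a pair of neighbouring microRNA (miRNA) genes that gives rise to 3 mature miRNAs, mmu-miR-451a, mmu-miR-144-3p and mmu-miR-144-5p. They were taken by name from a sheet of small-RNA counts and are 3 of 1060 miRNAs listed there once repeated lines are counted once. All 3 were detected in all 12 libraries, and all 3 passed the filter on low counts together with 428 others, so that 431 miRNAs were tested.

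The libraries came from the basolateral amygdala of male C57BL/6J mice aged 10 weeks, 3 mice in each of 4 groups. Mice of the RE group (retrieval-extinction) were trained with 3 pairings of a tone and a 0.6 mA foot shock, heard 1 retrieval tone after 24 h and, 1 h later, began 2 extinction sessions of 18 tones each without shock. Mice of the E group (extinction) had the same conditioning and the same extinction sessions without the retrieval tone. Mice of the F group (memory formation) had the conditioning alone, and control mice (C) went through that procedure without any shock. The amygdala was collected 1 h after training ended, with C mice sampled alongside F mice. Mice of the RE and E groups were thus sampled on a later day than those of the F and C groups. The RE libraries are numbered 3, 4 and 5. The sample labels and the methods give the tissue as amygdala and do not mention perfusion of the animals. The submitters' design note calls the profiles retinal. Of the 4 neuronal miRNAs on a list used below, mmu-miR-128-3p (39006 to 72842 CPM) and mmu-miR-9-5p (22622 to 31399 CPM) were abundant in all 12 libraries. mmu-miR-124-3p had 683 to 1329 CPM, and mmu-miR-138-5p was lower still. These levels do not tell the tissues apart, since both hold neurons.

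The cluster is switched on by the transcription factor GATA1 in red cell precursors, and its products stay among the most abundant miRNAs of circulating red cells. Brain tissue taken without flushing the vessels still holds blood, so that these miRNAs can serve as a gauge of red cells in a dissection. In plasma, the ratio of miR-451a to miR-23a-3p is used in the same way, as an index of haemolysis. In whole tissue, fewer red cells and less of a miRNA in each cell cannot be told apart.

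Both genes lie on the plus strand of chromosome 11 in the GRCm38 build, Mir144 at chr11:78073005-78073070 and Mir451a at chr11:78073170-78073241, with 99 bases between the hairpins. No annotated gene hosts them; the nearest are Eral1, which ends 134 bases downstream on the minus strand, and Flot2, which ends 12570 bases upstream on the plus strand. Mir451b is annotated on the minus strand at the coordinates of Mir451a and was not analysed here. The hairpins from RefSeq are shown because the members are made from them in different ways, with the mature miRNAs in capitals.

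Mir144: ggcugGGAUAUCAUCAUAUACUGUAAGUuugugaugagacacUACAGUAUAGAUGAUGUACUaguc
Mir451a: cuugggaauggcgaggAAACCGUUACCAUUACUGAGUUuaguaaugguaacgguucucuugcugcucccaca

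Mir144 has 66 bases and yields a mature miRNA from each arm, miR-144-5p from the left of the loop and miR-144-3p from the right, both cut by Dicer. Mir451a is a hairpin too short for Dicer and is sliced by Argonaute 2 instead. Its longest run of paired bases is marked here, because the mature miRNA runs past it into the loop.

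Mir451a, paired bases in capitals: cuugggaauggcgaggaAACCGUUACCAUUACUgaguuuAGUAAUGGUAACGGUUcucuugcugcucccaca

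In that run, bases 2 to 17 of mature miR-451a pair with 16 bases across a loop of 6 bases, and the last 5 bases of the mature miRNA lie in the loop. The mature sequences follow, with the seed (bases 2 to 8, by which a miRNA finds its targets) in capitals. They were the same in RefSeq and in the count sheet for 3 of 3 members.

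mmu-miR-451a: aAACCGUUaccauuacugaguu
mmu-miR-144-3p: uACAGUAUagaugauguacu
mmu-miR-144-5p: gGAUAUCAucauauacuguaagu
mmu-miR-101a-3p: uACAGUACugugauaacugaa

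The seeds of the 3 members differ from each other and are shared with no other miRNA in the count sheet. Over bases 2 to 7 alone, miR-144-3p shares its letters with 1 other, miR-101a-3p, which is shown for that reason. miR-451a is known for repressing Ywhaz in red cell precursors, where it protects them against oxidative stress. None of the predicted miRNAs of the sheet shared 14 bases in a row with either hairpin (0 of 307).

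The libraries held 1093194 to 1925516 counts in the RE group, 1290680 to 1791196 in the E group, 1276794 to 2353896 in the F group and 1490449 to 1694940 in the C group. In every group 1 library stood apart from the other 2. In RE replicate 4, E replicate 2, F replicate 1 and C replicate 2 the most abundant miRNA was mmu-let-7g-5p, and in the other 8 libraries it was mmu-miR-148a-3p. These are called let-7g libraries and miR-148a libraries here. The split was read from the counts, no label gives it, and its origin was not tested; since each group has 1 let-7g library, results are also given for the 8 miR-148a libraries alone. Levels below are in CPM, counts brought to a library of 1000000 with sizes scaled by the trimmed mean of M values. They carry no correction for length, and the counts of different mature miRNAs also depend on how well each was captured.

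mmu-miR-451a was the most abundant member. It had 466, 175 and 345 CPM in RE replicates 3, 4 and 5. It had 163, 758 and 274 CPM in E replicates 1 to 3. It had 144.1, 251 and 335 CPM in F replicates 1 to 3, against 375, 120 and 254 CPM in C replicates 1 to 3. The groups overlapped in all 6 comparisons. In the E group, replicate 2 was above all other libraries, and replicate 1 was the lowest of the 8 miR-148a libraries. The lowest of all 12 libraries was C replicate 2. The means were 329 ± 147 CPM in RE, 398 ± 316 in E, 243 ± 95.8 in F and 250 ± 127.9 in C (SD, n = 3 each). From the highest mean to the lowest the order was E, RE, C, F, and no neighbours in it differed beyond their spread. Its raw counts were 211 to 1109, which placed it between rank 90 and rank 187 of the 1060 miRNAs.

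mmu-miR-144-3p, the arm usually taken as the main product of Mir144, was lower, with mmu-miR-451a at 5.03 to 17.6 times its count in the same library. It had 68.7, 15.4 and 36.9 CPM in RE replicates 3, 4 and 5. It had 22.4, 43.0 and 28.6 CPM in E replicates 1 to 3. It had 20.04, 16.7 and 66.7 CPM in F replicates 1 to 3, against 45.2, 8.62 and 42.8 CPM in C replicates 1 to 3. The 2 highest libraries were RE replicate 3 and F replicate 3, and the lowest was the let-7g library of the C group. The means were 40.3 ± 26.8 CPM in RE, 31.3 ± 10.6 in E, 34.5 ± 27.96 in F and 32.2 ± 20.5 in C (SD, n = 3 each). The order of the means was RE, F, C, E, again with no neighbours apart beyond their spread. Raw counts ran from 18 to 139, at ranks 215 to 383, so that counting error alone was wide at the low end: the 18 counts of C replicate 2 were 10.6 CPM before scaling, with a 95% Wilson interval of 6.72 to 16.8 CPM, which covers counting error only.

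mmu-miR-144-5p comes from the other arm of Mir144. It had 44.5, 36.1 and 36.4 CPM in RE replicates 3, 4 and 5. It had 23.2, 77.9 and 28.6 CPM in E replicates 1 to 3. It had 35.5, 27.8 and 48.9 CPM in F replicates 1 to 3, against 49.4, 17.7 and 36.6 CPM in C replicates 1 to 3. E replicate 2 was the highest of all 12 libraries, as for miR-451a, and the RE mice lay closest together. The means were 39.0 ± 4.76 CPM in RE, 43.2 ± 30.1 in E, 37.4 ± 10.7 in F and 34.6 ± 15.9 in C (SD, n = 3 each). The order of the means was E, RE, F, C, and no neighbours differed beyond their spread. Raw counts were 30 to 114, at ranks 210 to 316.

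**Figure D1:**
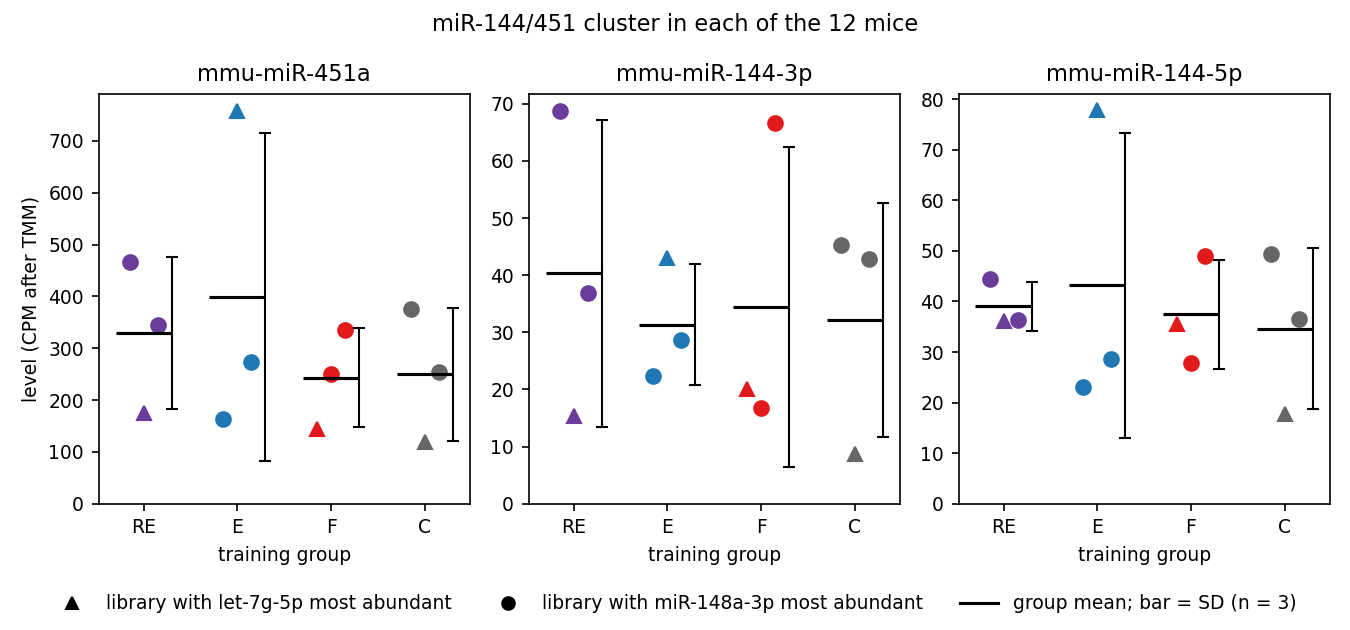
Level of each member (CPM, linear axis from 0) in the 12 mice by training group, with triangles for let-7g libraries, circles for miR-148a libraries, a line at the group mean and a bar for the SD (n = 3). The groups overlap for all 3 members, and E replicate 2 is the highest point for mmu-miR-451a at 758 CPM and for mmu-miR-144-5p at 77.9 CPM.

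The first question was whether the amount of these red cell miRNAs differed between the training groups. No member passed the test in any of the 6 comparisons. edgeR's quasi-likelihood test over the 431 miRNAs gave adjusted p values of 0.996 to 1.00 for the 18 fold changes (Benjamini-Hochberg), and 0 of 18 had an unadjusted p under 0.05. DESeq2 and limma called 0 of 18 as well. Among all miRNAs tested, edgeR called 0% at an adjusted p under 0.05 in each comparison, and DESeq2 called 0.233% in F against C, 0.698% in RE against C, 0.233% in RE against E and 0% in the other 3. At an unadjusted p under 0.05, edgeR's shares of all miRNAs were 1.86% in F against C, 1.62% in E against C, 5.57% in RE against C, 3.71% in E against F, 2.09% in RE against F and 2.32% in RE against E. By the study's own criterion, a log2 fold change of 1 in size with an unadjusted p under 0.05, it called 1.16% in F against C, 0.696% in E against C, 2.78% in RE against C, 1.62% in E against F, 0.696% in RE against F and 0.928% in RE against E. The members met it in 0 of 18 fold changes, which at these background shares is no result about the members. Groups did not overlap for 4.41% of all miRNAs in F against C, 4.18% in E against C, 7.66% in RE against C, 7.19% in E against F, 5.57% in RE against F and 7.66% in RE against E, and for 0 members in any. One test over the 4 groups at once gave an edgeR adjusted p of 1.00 for each member, and called 0% of all miRNAs.

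All 18 intervals included 0. For mmu-miR-451a the log2 fold change was 0.67 in E against C and 0.71 in E against F (SE 0.61 each). It was 0.40 in RE against C, 0.43 in RE against F, −0.28 in RE against E and −0.03 in F against C (SE 0.61 each). These came with 95% intervals of about 1.3 log2 units to either side, so that a log2 fold change of 1 for miR-451a is inside the interval in all 6 comparisons. For mmu-miR-144-3p the log2 fold changes ran from −0.15 in E against F to 0.35 in RE against E, with SEs of 0.72 to 0.73. For mmu-miR-144-5p they ran from −0.15 in RE against E to 0.33 in E against C, with SEs of 0.48 to 0.49. Over the 18 fold changes the 95% bounds reached −1.74 and 2.06.

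The signs of the E comparisons depended on single mice. Without E replicate 2, mmu-miR-451a had a log2 fold change of −0.21 in E against C, −0.14 in E against F and 0.57 in RE against E, each opposite in sign to the value with it. mmu-miR-144-5p turned likewise, to −0.43 in E against C, −0.51 in E against F and 0.55 in RE against E. mmu-miR-144-3p kept its signs without that mouse, at −0.34 in E against C, −0.42 in E against F and 0.63 in RE against E, but lost them without others. In E against C it was at 0.30 without C replicate 1, 0.22 without C replicate 3, 0.19 without E replicate 1 and 0.08 without E replicate 3. In E against F it was at 0.78 without F replicate 3 and 0.09 without E replicate 1, and in RE against E at −0.31 without RE replicate 3. For mmu-miR-451a in RE against E, leaving out RE replicate 4 also turned the sign, to 0.03. None of the values without E replicate 2 had an adjusted p under 0.05 (edgeR, 0.958 to 0.999).

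**Figure D2:**
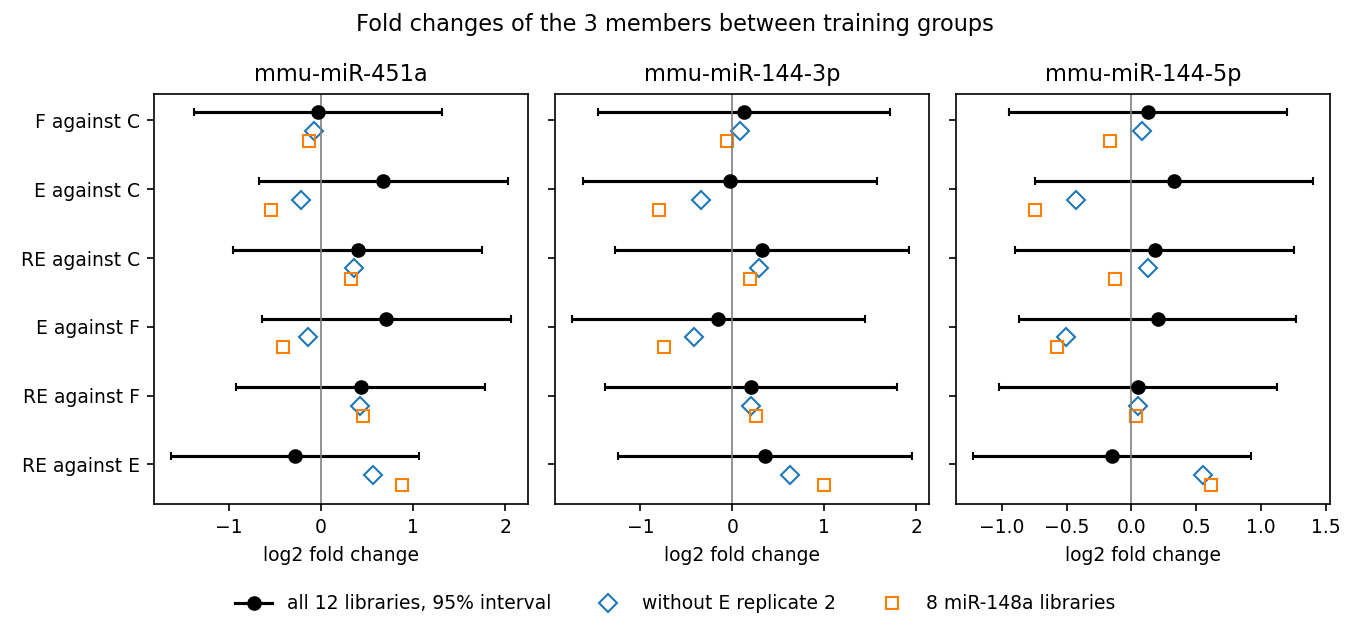
Log2 fold change of each member in the 6 comparisons, first group over second, from all 12 libraries with the 95% interval (black), without E replicate 2 (blue diamonds) and in the 8 miR-148a libraries alone (orange squares). All black intervals cross 0, and for mmu-miR-451a in E against C the value is 0.67 with all libraries, −0.21 without E replicate 2 and −0.54 in the 8 libraries.

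The 8 miR-148a libraries, 2 for each group, gave narrower errors. mmu-miR-451a in RE against E had the smallest p of the 18 fold changes there, at a log2 fold change of 0.87 (SE 0.27, edgeR's adjusted p = 0.122). In CPM this sets 466 and 345 in RE against 163 and 274 in E. The only other one with an unadjusted p under 0.05 was mmu-miR-144-5p in E against C, at −0.74 (SE 0.31, edgeR's adjusted p = 0.981). Neither was called after adjustment. In the same 8 libraries the share of all miRNAs with an unadjusted p under 0.05 was 18.2% in RE against E, 10.1% in RE against F, 15.8% in RE against C, 9.2% in E against F, 3.77% in E against C and 5.9% in F against C. At an adjusted p under 0.05 it was 0.708% in RE against E, 0.943% in RE against C, 0.236% in E against F and 0% in the other 3. mmu-miR-144-3p and mmu-miR-144-5p had log2 fold changes of 0.99 (SE 0.50) and 0.61 (SE 0.31) in RE against E there. In E against C the 8 libraries gave −0.54 for mmu-miR-451a and −0.80 for mmu-miR-144-3p, with an edgeR adjusted p of 0.981 for each. In all 12 libraries mmu-miR-451a was at −0.28 in RE against E and 0.67 in E against C, opposite in sign to the values in the 8 libraries.

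That mouse, E replicate 2, was looked at across the miRNAs. Its mmu-miR-451a count of 1109 was 850 CPM before scaling (95% Wilson interval 802 to 902 CPM), against 441 CPM (403 to 482 CPM) in the next highest library, RE replicate 3. Compared with the median of the other 3 let-7g libraries, E replicate 2 had 5.26 times as much mmu-miR-451a, 2.80 times as much mmu-miR-144-3p and 2.19 times as much mmu-miR-144-5p. Ranks here are by the log2 ratio after a small count was added to each value, which damps scarce miRNAs, and can differ from the order of the plain ratios. The members stood at ranks 4, 8 and 12 of 431. This mouse drew attention through its high mmu-miR-451a and mmu-miR-144-5p, so that high ranks of the members repeat that choice and are no separate evidence. With a single library no test was made.

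miRNAs with a known place in red cells were compared in the same mouse. mmu-miR-486a-5p, made in red cell precursors and in muscle, had 177 CPM in E replicate 2, against 89.8 to 123 CPM in the other 11 libraries. Its other arm, mmu-miR-486a-3p, named after its values were seen, had 13.7 CPM in E replicate 2, inside the 12.3 to 19.2 CPM of the other let-7g libraries. The 5p arm has the same mature sequence and counts as mmu-miR-486b-5p, so that the 2 genes cannot be told apart, and it was counted once. mmu-miR-92a-3p and mmu-miR-363-3p, both of which belong to the seed family of miR-25 and are known from red cells among many other cells, had 26.0 and 27.3 CPM in E replicate 2, against at most 9.99 and 9.67 CPM in the other libraries. They were scarce elsewhere, and they are named here for their likeness to mmu-miR-451a over the 12 libraries, which rests on this mouse. mmu-miR-25-3p itself, far more abundant, was at 841 CPM, against 562 to 785 CPM elsewhere. The sequences are shown because the last 3 share 1 seed, AUUGCAC, while miR-486a-5p has another.

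mmu-miR-486a-5p: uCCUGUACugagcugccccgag
mmu-miR-92a-3p: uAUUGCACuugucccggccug
mmu-miR-363-3p: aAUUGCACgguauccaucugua
mmu-miR-25-3p: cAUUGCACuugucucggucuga

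Not all miRNAs found in red cells were high in E replicate 2. mmu-miR-185-5p, the most abundant on a list of miRNAs known from red cells, had 1937 CPM there, against 2203 to 2630 CPM in the other let-7g libraries (log2 ratio −0.28, rank 296 of 431). mmu-miR-16-5p, one of the most abundant in blood and present in nearly every tissue, had 142.1 CPM there. It was at 109 to 133 CPM in the other let-7g libraries and at 216 to 325 CPM in the 8 miR-148a libraries. Of the 11 tested miRNAs on a list of those abundant in red cells and broadly expressed, 4 were highest of all 12 libraries in E replicate 2. Of the 5 tested miRNAs on an erythroid list, which holds the 3 members, both arms of miR-486a, their miR-486b copies and miR-451b, 3 were highest there: mmu-miR-451a, mmu-miR-144-5p and mmu-miR-486a-5p. Over all miRNAs tested it was 34 of 431, or 7.89%. The median log2 ratio of E replicate 2 to the other let-7g libraries was 1.10 for the erythroid list and −0.07 for all tested. The 1.10 is the value of mmu-miR-144-5p. Since the 3 members are on the erythroid list, its values repeat in part the levels that set this mouse apart. Outside the members, mmu-miR-486a-5p was at 0.78 and mmu-miR-486a-3p at −0.02. mmu-miR-187-3p and mmu-miR-187-5p, on no list here and named after their values were seen, stood at ranks 2 and 3 by the same log2 ratio, between mmu-miR-363-3p at rank 1 and mmu-miR-451a.

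Markers of other cell types also differed between E replicate 2 and the rest of its set. On the list of leukocytes and microglia the median log2 ratio to the other let-7g libraries was 0.41 over 6 tested miRNAs, against −0.07 for all tested. mmu-miR-142a-5p, of blood cells in general, was at 2.22 times the median of those libraries (rank 17), and mmu-miR-223-3p, of neutrophils and other myeloid cells, at 2.00 times (rank 26), close to the 1.72 times (rank 25) of mmu-miR-486a-5p. mmu-miR-142a-3p was at 0.987 times and lymphoid mmu-miR-150-5p at 0.790 times. In CPM, mmu-miR-223-3p had 6.15 in E replicate 2, against 2.87 to 4.52 in the other let-7g libraries and 1.93 to 14.9 in the miR-148a libraries. None of the 6 was highest of all 12 libraries in E replicate 2. The list summed to 824 CPM there, inside the 805 to 958 CPM of the other let-7g libraries and below the 1088 to 1396 CPM of the miR-148a libraries. Most of that sum was mmu-miR-146a-5p (487 CPM, at 1.12 times, rank 120) and mmu-miR-150-5p (306 CPM), so that it says little about the scarcer miRNAs of the list.

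The vessel wall list, mmu-miR-143-3p, mmu-miR-143-5p and mmu-miR-145a-5p of smooth muscle and pericytes, had a median log2 ratio of 1.29, above the 1.10 of the erythroid list, and all 3 were highest of the let-7g libraries in E replicate 2. It summed to 9781 CPM there, against 3201 to 5001 CPM in the other let-7g libraries and 8025 to 27912 CPM in the miR-148a libraries. Endothelial miR-126a, both arms, summed to 6792 CPM in E replicate 2, against 4920 to 5903 CPM in the other let-7g libraries and 9841 to 11574 CPM in the miR-148a libraries. The part of other cell types in the levels of the members was not tested.

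**Figure D3:**
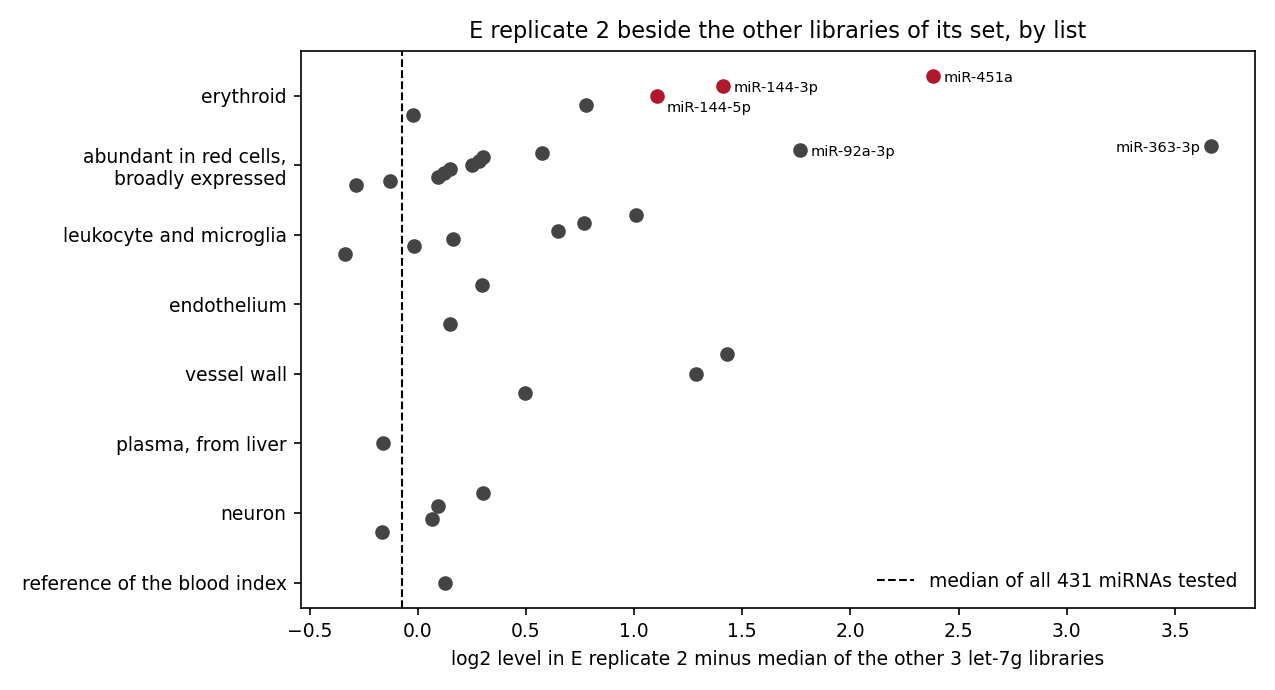
Log2 level of each listed miRNA in E replicate 2 minus the median of the other 3 let-7g libraries, 1 row for each cell type list, with the 3 members in red and a dashed line at the median of all 431 miRNAs tested (−0.07). mmu-miR-451a lies at 2.38, mmu-miR-144-3p at 1.41 and mmu-miR-144-5p at 1.10, and only mmu-miR-363-3p among all points is further right than mmu-miR-451a.

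The index used in plasma was highest in that mouse. It and the other ratios given here have mmu-miR-451a as numerator, whose level was already highest there. They are therefore no separate evidence. The ratio of mmu-miR-451a to mmu-miR-23a-3p counts was 1.69 in E replicate 2 and 0.332 to 1.37 in the other 11 libraries. Counts of mmu-miR-451a were 12.03% of those of mmu-miR-126a-3p, the endothelial miRNA, in E replicate 2 and 1.43% to 4.75% in the others. Against the median of the other 3 let-7g libraries these were 4.81 times and 4.28 times higher, both below the 5.26 times of the level in CPM. The ratio to mmu-miR-486a-5p, which is itself erythroid, was 4.28 in E replicate 2, against 1.26 to 1.52 in the other let-7g libraries and 1.77 to 4.87 in the miR-148a libraries.

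No miRNA of the blood lists was called between training groups. Of all miRNAs tested, edgeR called 0% in each comparison and DESeq2 at most 0.698%. At an unadjusted p under 0.05, edgeR's share of all miRNAs was 1.62% to 5.57%. At these background shares, 0 calls are no result about these lists or those of the next paragraph. Of the 30 fold changes of the 5 tested erythroid miRNAs, edgeR and DESeq2 each called 0 at an adjusted p under 0.05 and found 0 below that limit before adjustment. The median log2 fold change of the erythroid list lay between −0.15 in RE against E and 0.28 in E against C, while that of all miRNAs tested lay between −0.08 and 0.06. Its summed level was 361 to 677 CPM in RE, 307 to 1070 CPM in E, 316 to 579 CPM in F and 255 to 580 CPM in C. The 11 tested miRNAs abundant in red cells had 0 calls in 66 fold changes and the 6 of leukocytes and microglia 0 in 36, by either tool, and edgeR gave 0 at an unadjusted p under 0.05 in both lists. DESeq2 gave 1 there, mmu-miR-25-3p in RE against F. The leukocyte list summed to 958 to 1117 CPM in RE, 824 to 1153 CPM in E, 846 to 1396 CPM in F and 805 to 1149 CPM in C.

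The vessel wall list had 0 of 18 fold changes past an adjusted p of 0.05 by edgeR or DESeq2. At an unadjusted p under 0.05 it had 8 of 18 by each tool, all in comparisons with the E group, where edgeR's share of all miRNAs was 1.62% to 3.71%. Its summed level was 5001 to 8242 CPM in RE, 9781 to 27912 CPM in E, 4267 to 9334 CPM in F and 3201 to 14251 CPM in C. The highest of these was E replicate 3, whose mmu-miR-451a was at 274 CPM. The endothelial, plasma and neuron lists had 0 calls by either tool, with 0 fold changes at an unadjusted p under 0.05 by edgeR. DESeq2 gave 1 at that limit, mmu-miR-128-3p of the neuron list in RE against E. Hepatic mmu-miR-122-5p, a trace of plasma, had 15.7 CPM in E replicate 2 and 5.56 to 20.7 CPM in all libraries.

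How the members varied with each other was examined in the 8 miR-148a libraries, since a single correlation over both kinds of library would mix 2 clusters. Log2 levels of mmu-miR-144-3p and mmu-miR-144-5p had r = 0.881 (exact permutation p = 0.00489, adjusted p = 0.0362 over 10 relations) and rho = 0.881 (adjusted p = 0.0724). Those of mmu-miR-451a and mmu-miR-144-5p had r = 0.845 (exact permutation p = 0.00724, adjusted p = 0.0362) and rho = 0.786 (adjusted p = 0.0931). Those of mmu-miR-451a and mmu-miR-144-3p had r = 0.745 (exact permutation p = 0.0323) and rho = 0.810, neither past the threshold after adjustment (0.0890 and 0.0931). Without the 2 libraries farthest from the median of the first member, r was 0.830, 0.787 and 0.617 over 6 libraries. The 2 relations of mmu-miR-144-5p were thus past the adjusted threshold by r, and none by rho. Both lost that call with library totals in place of the trimmed mean (exact permutation adjusted p = 0.0505 each) and with the authors' normalized values (0.0675 for the miR-144 arms, 0.136 with mmu-miR-451a). The libraries come from 4 groups, and the values share a library and its scaling.

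None of the 7 other relations of mmu-miR-451a, 6 of them with blood and vessel miRNAs, passed the adjusted threshold in these 8 libraries. With mmu-miR-486a-5p r was 0.264 (exact permutation p = 0.496, adjusted p = 0.619), and its levels spread little, with an SD of 0.15 on the log2 scale against 0.46 for mmu-miR-451a. With the leukocyte miRNAs r was −0.539 for mmu-miR-223-3p, 0.541 for mmu-miR-142a-3p and −0.063 for mmu-miR-150-5p. With endothelial mmu-miR-126a-3p it was −0.482, and with hepatic mmu-miR-122-5p −0.243. These 5 had exact permutation adjusted p values of 0.312 to 0.883. Without the 2 farthest libraries r turned to 0.667 for mmu-miR-126a-3p and −0.197 for mmu-miR-142a-3p, and was −0.197 for mmu-miR-223-3p, −0.684 for mmu-miR-150-5p and −0.776 for mmu-miR-122-5p, so that these values rest on single libraries. With neuronal mmu-miR-124-3p r was 0.737 (exact permutation p = 0.0356, adjusted p = 0.0890) and dropped to 0.0095 without the 2 farthest libraries, so that it rested on those.

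**Figure D4:**
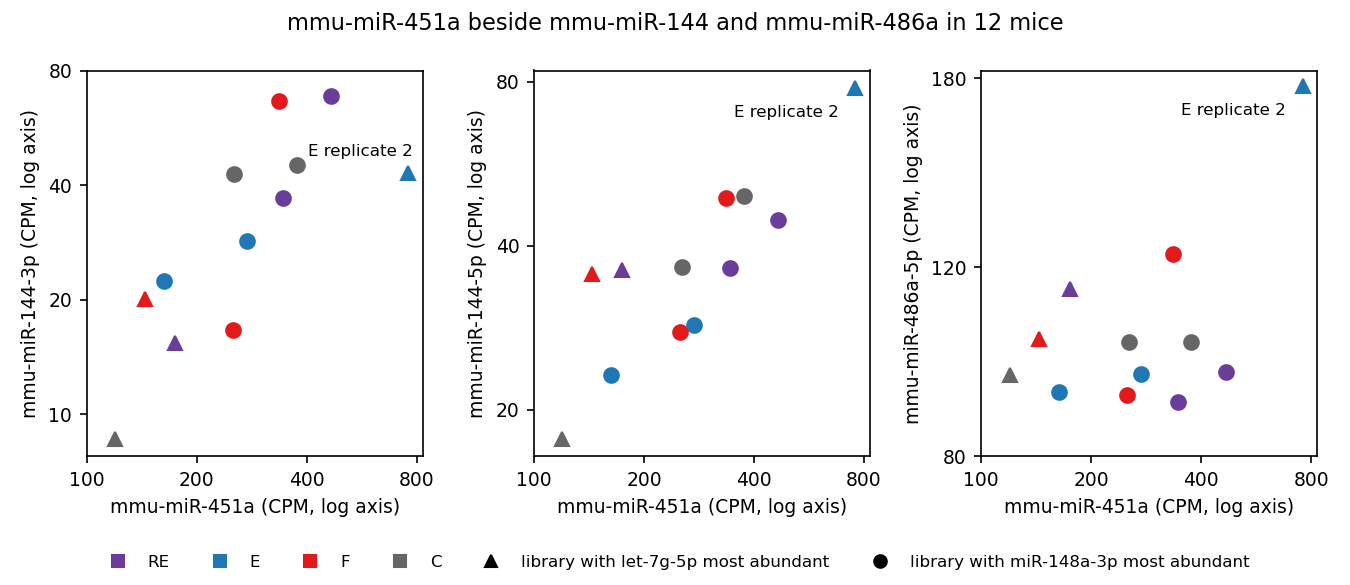
mmu-miR-451a (x axis) against mmu-miR-144-3p, mmu-miR-144-5p and mmu-miR-486a-5p (y axes), all in CPM on log axes, 1 point for each of the 12 mice, coloured by group, with triangles for let-7g libraries and circles for miR-148a libraries. In the 8 circles r is 0.745, 0.845 and 0.264; E replicate 2 is the rightmost point in each panel.

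Among the 430 other miRNAs tested, those whose log2 level was most like that of mmu-miR-451a over the 8 libraries were mmu-miR-23b-3p (r = 0.864), mmu-miR-365-3p (0.847), mmu-miR-144-5p (0.845), mmu-miR-23b-5p (0.842) and mmu-miR-30b-5p (0.805). mmu-miR-144-3p was at rank 12 and mmu-miR-486a-5p at rank 159. The least alike were mmu-miR-672-5p (−0.924), mmu-miR-3099-3p (−0.902) and a predicted miRNA (−0.893). With all 12 libraries, each kind centred on its own mean, the 5 most alike were mmu-miR-144-5p (0.889), mmu-miR-92a-3p (0.834), mmu-miR-486a-5p (0.814), mmu-miR-363-3p (0.809) and mmu-miR-144-3p (0.792). That list depended on 1 mouse: without E replicate 2, mmu-miR-144-5p was at rank 5, mmu-miR-144-3p at 12, mmu-miR-92a-3p at 62 and mmu-miR-363-3p at 100, with mmu-miR-486a-5p further down. These correlations describe the libraries and carry no test.

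The share of each member in the cluster was steadier than its level. mmu-miR-451a made up 72.2% to 86.2% of the counts of the 3 members, with a median of 80.2%. The ratio of mmu-miR-451a to both arms of miR-144 was 2.59 to 6.27 over the 12 libraries (median 4.05), with the highest in E replicate 2. By group the ratio was 3.39 to 4.71 in RE, 3.58 to 6.27 in E, 2.59 to 5.64 in F and 3.19 to 4.55 in C, and the groups overlapped.

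The balance between the arms of miR-144 differed between the kinds of library, while the training groups overlapped. The 3p arm held 60.7%, 29.9% and 50.4% of miR-144 counts in RE replicates 3, 4 and 5. It held 49.2%, 35.6% and 50.0% in E replicates 1 to 3. It held 36.0%, 37.5% and 57.7% in F replicates 1 to 3, against 47.8%, 32.7% and 53.9% in C replicates 1 to 3. The 4 let-7g libraries, at 29.9% to 36.0%, lay below the 8 miR-148a libraries, at 37.5% to 60.7%, without overlap. Such a separation was not particular to miR-144. In CPM, mmu-miR-126a-3p was at 4427 to 6297 in the let-7g libraries and 9626 to 11387 in the others. In the other direction, mmu-miR-124-3p was at 1184 to 1329 and 683 to 838. How many miRNAs or pairs of arms separated in this way was not counted. Summed, the let-7g libraries held 132 counts of miR-144-3p and 253 of miR-144-5p (34.3% on the 3p arm), and the miR-148a libraries 505 and 454 (52.7%). The 95% Wilson interval of the highest let-7g library, F replicate 1, was 26.7% to 46.6%, and that of the lowest miR-148a library, F replicate 2, was 26.0% to 50.6%, so that single libraries next to each other in this order cannot be told apart at their depth. No p is given, since the 2 kinds of library were defined from the same counts.

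**Figure D5:**
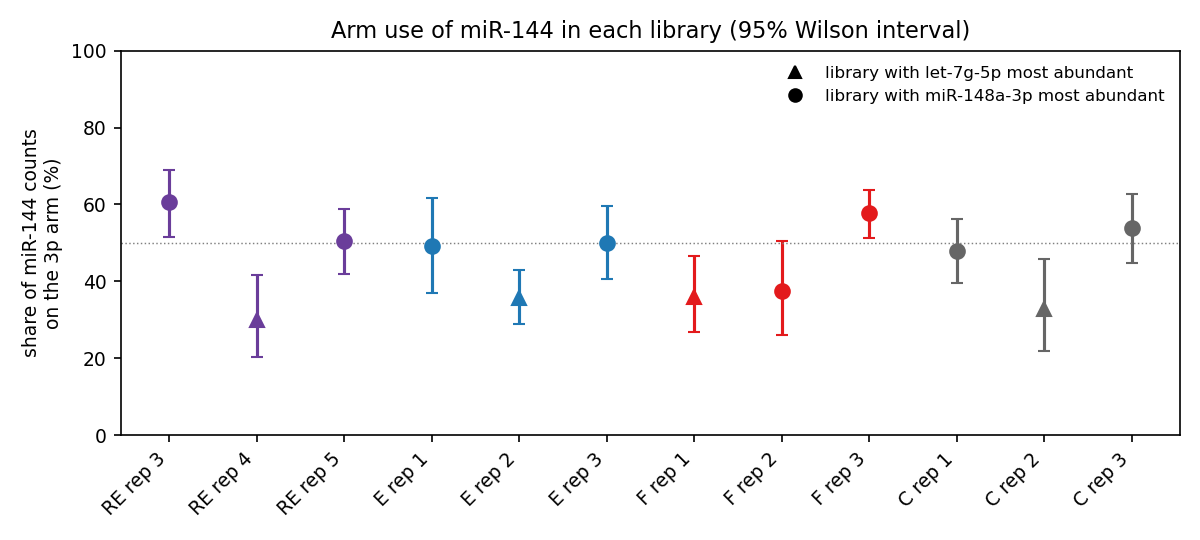
Share of miR-144 counts on the 3p arm (%, axis from 0 to 100) in each of the 12 libraries, with 95% Wilson intervals for counting error and a dotted line at 50%; triangles are let-7g libraries and circles miR-148a libraries. The 4 triangles lie at 29.9% to 36.0% and the 8 circles at 37.5% to 60.7%.

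The levels of the members were also compared between the kinds of library, which were defined from the same counts. The mean log2 level in the 4 let-7g libraries minus that in the 8 miR-148a libraries was −0.95 for mmu-miR-144-3p, −0.43 for mmu-miR-451a and 0.04 for mmu-miR-144-5p. Without E replicate 2 it was −1.34, −1.02 and −0.32 in the same order, so that 1 library decided the size for mmu-miR-451a and the sign for mmu-miR-144-5p. By size, the values without E replicate 2 stood at ranks 80, 119 and 317 of 431, so that many other miRNAs differed more between the kinds. mmu-miR-486a-5p was at 0.27 with that library and 0.08 without it.

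Spread among the let-7g libraries rested largely on the same mouse. The SD of log2 levels over the 4 libraries was 1.21 for mmu-miR-451a, 0.90 for mmu-miR-144-3p and 0.84 for mmu-miR-144-5p, at ranks 9, 17 and 21 of 431, where the median miRNA had 0.26. Without E replicate 2 it was 0.27, 0.56 and 0.56, at ranks 195, 53 and 58, where the median was 0.25. Over the 8 miR-148a libraries it was 0.46, 0.69 and 0.39, at ranks 87, 29 and 119, where the median was 0.26.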

How the data were processed

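Small RNA from the basolateral amygdala of 12 mice was sequenced (CASAVA 1.8 in the submitters' notes, which also name the human build hg38). Per the methods, the authors trimmed reads with Cutadapt, kept those of 15 nt or more, and identified and quantified miRNAs with miRDeep2 and Novoalign. They deposited raw counts for each mature miRNA in each library, and a sheet of normalized values. The methods describe these as tag counts scaled to the aligned miRNA tags of a library (TPM); the authors deposited them rounded to whole numbers, so they are treated here as a score, and the listed counts were 22.2% to 25.2% of the library totals they imply. Of 1169 lines, 109 repeated the sequence and counts of another and were counted once.

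Counts were fitted with edgeR 4.0.16 (R 4.3.3; trimmed mean of M values, filterByExpr with a minimum count of 10, quasi-likelihood test, all 12 libraries in 1 fit, Benjamini-Hochberg over 431 miRNAs). A call was an adjusted p under 0.05. The script was tested on simulated counts. Correlations used exact permutation tests over all orders of the libraries, written in Python 3.11.15, with ranks for rho from scipy 1.17.1. Alternatives were DESeq2 1.42.0, other scalings and filters, a replicate block and leaving out each library. A further alternative was limma 3.58.1 on log2 of the authors' rounded normalized values plus 1 or 0.5. Fits using the kind of library were added after the data were seen. Pairs of replicates differed more than counting error allows (chi-square over its degrees of freedom 34.4 to 1005), so none was counted as a repeat.

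Same-numbered E and C libraries deviated together from their group means (r = 0.45, 0.74 and 0.55 for replicates 1 to 3). By the rule of r over 0.1 in every pair this counts as pairing, although no label states it. F and C (−0.72, −0.53, 0.63) and E and F (−0.57, −0.62, 0.49) did not meet the rule. The signs went with the kind of library. In E and C the let-7g library is replicate 2, so that same-numbered libraries are of the same kind, while in F it is replicate 1. No matched design follows from these values, and the part of the kind of library in them was not tested. The members and the cell type lists were chosen with earlier results of these data known. Named miRNAs were the members, up to 4 of each list by mean level, those whose relation to mmu-miR-451a was tested, and the 5 most and 3 least like mmu-miR-451a. Others are marked. Sequences are from RefSeq (GRCm38.p6), that of mmu-miR-486a-5p from the count sheet, and gene positions also from GENCODE.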

Additional observations from a re-analysis of the deposited data

How the results depend on the processing

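Over 441 alternative values of the 18 fold changes, 0 had an adjusted p under 0.05 (0.0871 to 1.00, edgeR, DESeq2 and limma), and 64 had the opposite sign. The smallest, 0.0871, was that of mmu-miR-451a in RE against E (0.86) with a term for the kind of library and without E replicate 2. In the 8 miR-148a libraries and in that fit, mmu-miR-451a was at −0.54 and −0.50 in E against C, −0.41 and −0.47 in E against F, and 0.87 and 0.86 in RE against E; mmu-miR-144-5p was at −0.74 and −0.54, −0.58 and −0.69, and 0.61 and 0.72. The 8 libraries also gave mmu-miR-144-5p −0.17 in F against C and −0.13 in RE against C, and mmu-miR-144-3p −0.059 in F against C. mmu-miR-144-3p was near 0 with changing sign elsewhere: in E against C 0.056 with library totals, 0.0058 without a filter, 0.0010 with a mean count of 50, 0.084 (with and without filter) and 0.099 by limma with pseudocounts 1 and 0.5, and 0.25 with the library term; in E against F 0.017 with library totals, 0.12 and 0.13 by limma and 0.0048 with the library term; by limma −0.035 in F against C with each pseudocount, and −0.031 and −0.046 in RE against E. Library totals in place of the trimmed mean moved the median of all miRNAs by −0.16 to 0.09 on the log2 scale. The cause of these changes was not tested.

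Leaving out each library in turn gave, for mmu-miR-451a, −0.39 to 0.35 in F against C, −0.21 to 1.08 in E against C, 0.01 to 0.79 in RE against C, −0.14 to 1.13 in E against F, 0.07 to 0.75 in RE against F and −0.72 to 0.57 in RE against E. For mmu-miR-144-3p these were −0.85 to 0.42, −0.45 to 0.30, −0.31 to 0.72, −0.48 to 0.78, −0.41 to 1.13 and −0.31 to 0.74. For mmu-miR-144-5p they were −0.21 to 0.43, −0.43 to 0.66, −0.19 to 0.50, −0.51 to 0.55, −0.13 to 0.30 and −0.52 to 0.55. No call changed. Beside those of the E comparisons, signs turned in F against C for mmu-miR-451a (without C replicate 1 or F replicate 1) and for both miR-144 arms (C replicate 2 or F replicate 3), in RE against C for both arms (C replicate 2, and for the 3p arm RE replicate 3), and in RE against F for both arms (F replicate 1 or 2, or RE replicate 3).

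With the replicate number as a block, mmu-miR-451a was at −0.17 in F against C, 0.46 in E against C and 0.63 in E against F; mmu-miR-144-5p was at 0.12, 0.31 and 0.19, and mmu-miR-144-3p at 0.04, 0.21 and 0.17, the last 2 with the sign turned. The block changed no call. RE shares 1 number with each other group, so no blocked fit was made for it.

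The relation of mmu-miR-451a and mmu-miR-144-5p lost its call with library totals (r = 0.818, exact permutation adjusted p = 0.0505) and with log2 of the authors' normalized values (0.761, 0.136), and that of the miR-144 arms likewise (0.858, 0.0505; 0.866, 0.0675). The relation with mmu-miR-486a-5p turned to −0.032 and −0.14. Counts of 18 to 139 limit mmu-miR-144-3p, whose 95% bounds over the 6 comparisons reached −1.74 and 1.95 on the log2 scale.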
